A study of Mus musculus with 35 samples.

Results

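The 8 senescence and p53 barrier genes of reprogramming (of the 21627 protein-coding genes with a window here) were followed through the conversion of mouse embryonic fibroblasts to pluripotent cells: Cdkn1a, Cdkn2a, Cdkn2b, Cdkn1b, Trp53, Mdm2, Ccnd1 and Ccnd2. They are listed by name, with no threshold on a measured value. Each was measured over its gene body and 50 kb to each side, in GRCm38 (mm10) coordinates, in all 22 peak lists. The lists came from chromatin immunoprecipitation sequencing of H3K27ac, the acetylation of histone H3 lysine 27 that marks active promoters and enhancers (12 libraries), and of the transcription factor KLF4 (10 libraries).

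The H3K27ac libraries were 2 of fibroblasts (MEF), 3 each of day 3 and day 6, 2 of day 9 and 2 of embryonic stem cells (ESC). KLF4 was profiled in 2 libraries each of day 3, day 6, day 9, ESC in serum with LIF, and ESC that also received 2i, namely 1 µM of a MEK inhibitor and 3 µM of a GSK3 inhibitor. The MEF and the day 3, 6 and 9 cells carried the labelled genotype OKSM Col1a1/M2rtTA ROSA26, a doxycycline-inducible cassette of Oct4, Klf4, Sox2 and Myc with its transactivator, in the C57BL/6 x 129 strain. MEF received no doxycycline, and the day 3, 6 and 9 cells received 1 µg/ml doxycycline with 50 µg/ml ascorbic acid. The ESC were the V6.5 line, of the same strain label and without the cassette in their genotype label, grown on irradiated feeder cells. Day 3 cells were unsorted, whereas day 6 and day 9 cells were sorted for the surface antigen SSEA1, so the sort cannot be told apart from the step between day 3 and day 6. KLF4 at days 3 to 9 therefore includes the product of the cassette. No KLF4 list of MEF was analysed here. Nothing in the labels says that libraries of a stage came from separate cultures, so p-values measure only the spread between these libraries.

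These genes belong to the pathways through which senescence and p53 restrain cell division and reprogramming, with both inhibitors and drivers of division among them. Cdkn2a encodes p16Ink4a, an inhibitor of the cyclin D kinases CDK4 and CDK6, and, from another first exon, p19Arf, which inhibits MDM2 and thereby stabilises p53. Cdkn2b, its neighbour, encodes the related kinase inhibitor p15Ink4b. Trp53 encodes p53, Mdm2 the ubiquitin ligase that degrades p53 and is itself induced by it, and Cdkn1a the kinase inhibitor p21, a classical p53 target. Cdkn1b encodes the inhibitor p27Kip1, and Ccnd1 and Ccnd2 encode the D cyclins that p16Ink4a and p15Ink4b oppose. In cultured fibroblasts the Cdkn2a and Cdkn2b locus is known to become active with passage, and in pluripotent cells it is known to be held under Polycomb repression.

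The lists held 17493 to 88347 H3K27ac peaks covering 9.207 to 83.51 Mb, and 21129 to 34640 KLF4 peaks covering 4.454 to 15.16 Mb. The day 6 H3K27ac lists were the shortest. Read counts are not part of peak lists, so the depth behind a peak, or behind its absence, is unknown. A level below is the length covered by peaks in a gene's window, in bp per Mb of the length covered by all peaks of that list. In a short list, the same peaks take a larger share, so the mean covered kb of each stage is given beside the H3K27ac shares. As a check of the labels, marker genes were counted as marked where a peak lay over the gene or within 2.5 kb. H3K27ac was found at 8 of 8 fibroblast markers in both MEF libraries and at 3 to 4 of 8 in ESC, where Thy1, Col1a2, Col6a2 and Postn had none. It was found at 8 of 8 pluripotency markers in ESC and 7 of 8 on day 9, against 3 of 8 in MEF and 1 to 2 of 8 at days 3 and 6. The macrophage markers Ptprc, Csf1r and Cd68 had H3K27ac at 3 of 3 in MEF and at 1 of 3 (Cd68) in ESC. Of 4 epithelial markers, 2 had it in MEF and 4 on day 9 and in ESC. The part of feeder cells or of these other cell types in the values below was not tested.

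Across the 5 H3K27ac stages all 8 genes passed the limma F test with Benjamini-Hochberg adjustment over all windows, as did 90.8% of all 19774 windows tested. By number of peaks in place of covered length, Mdm2 did not pass (adjusted p = 0.067). Between the end points the ESC were lower than MEF at Cdkn2b, Cdkn2a and Ccnd1 and higher at Trp53, Cdkn1a and Ccnd2. That is 3 of 8 lower and 3 of 8 higher, against 26.1% and 37.2% of all windows. The median difference of the 8 genes was 0.05 on the log2 scale and that of all windows 0.19. MEF and ESC libraries belonged to 1 batch, DG-3458. Their lists covered 82.8 and 83.5 Mb in MEF and 66.3 and 62.3 Mb in ESC, so scaling raises ESC relative to MEF. Without scaling the median of all windows was -0.12, with 4241 windows higher and 5212 lower in ESC, against 7365 and 5163.

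**Figure D1:**
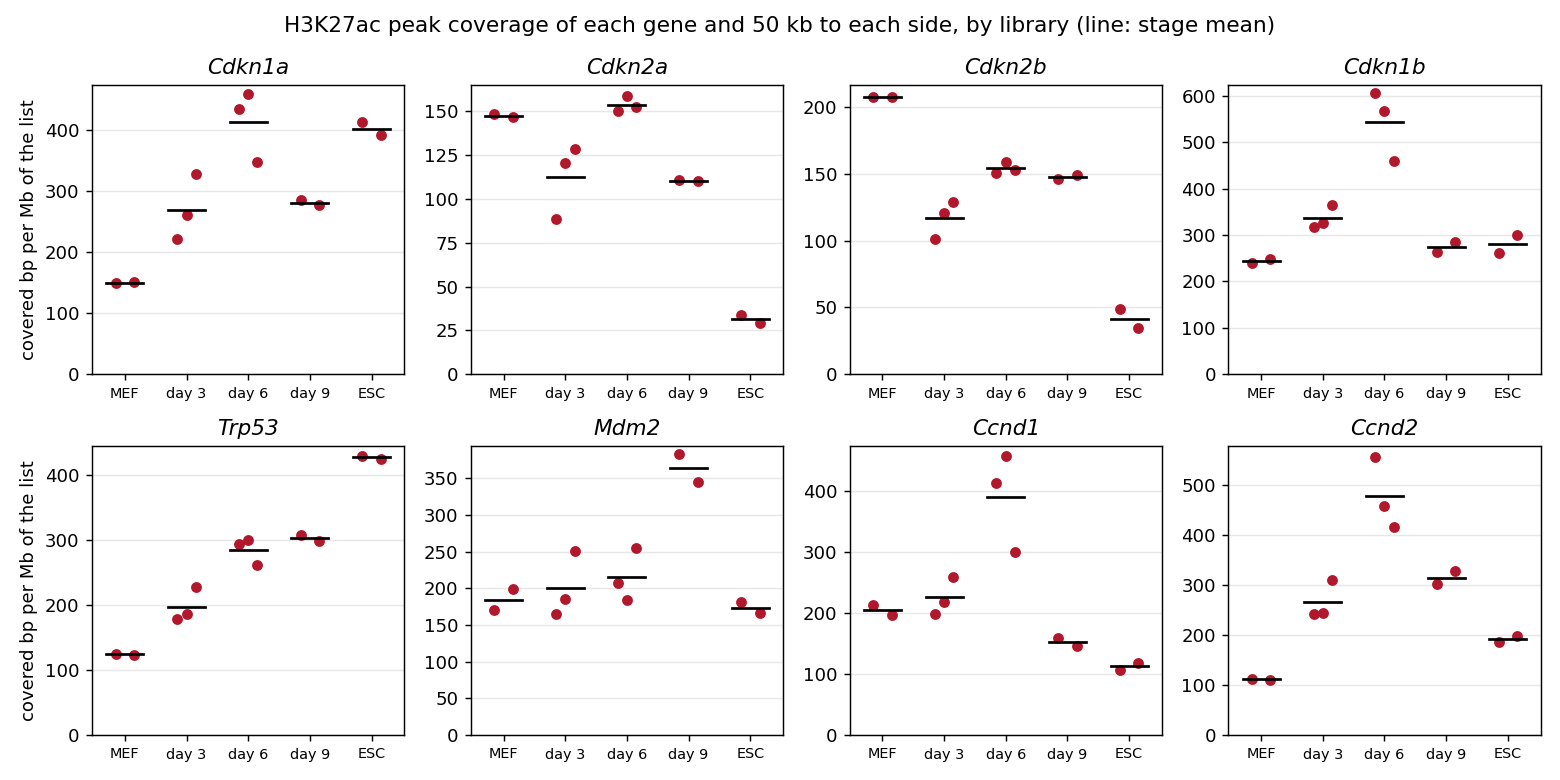
H3K27ac coverage of each gene and 50 kb to each side, in bp covered per Mb of the library's peaks (linear axis from 0), with 1 point per library and a line at the stage mean. ESC lie lowest at Cdkn2a and Cdkn2b, ESC lie highest at Trp53, and the 2 day 9 libraries stand above all others at Mdm2.

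The Cdkn2a and Cdkn2b locus lost most of its acetylation between MEF and ESC, at every window width tried. The windows of the 2 genes overlap, so their values are not independent. In the Cdkn2b window H3K27ac covered 207.4 and 207.8 bp per Mb in the MEF libraries, 101.4, 120.4 and 128.5 on day 3, 150.3, 158.7 and 152.8 on day 6, 145.7 and 148.7 on day 9, and 48.5 and 34.2 in ESC. No library of another stage reached the MEF values or came down to the ESC values. In covered length the means were 17.26 kb in MEF, 3.54 kb on day 3, 2.03 kb on day 6, 7.25 kb on day 9 and 2.68 kb in ESC, so the high share on day 6 came from lists of short total length. The ESC minus MEF difference was -2.10 on the log2 scale (SE 0.146, adjusted p = 1.7e-06, limma). For Cdkn2a the libraries gave 148.3 and 146.6 in MEF, 88.4, 120.4 and 128.5 on day 3, 150.3, 158.7 and 152.8 on day 6, 110.7 and 110.4 on day 9, and 33.7 and 29.4 bp per Mb in ESC. Their covered lengths were 12.26 kb in MEF, 3.38 kb for day 3, 2.03 kb for day 6, 5.44 kb for day 9 and 2.04 kb in ESC. The difference was -1.92 (SE 0.157, adjusted p = 5.2e-06), and leaving out any 1 library kept it between -2.0 and -1.85.

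Within the locus, H3K27ac peaks at the p16Ink4a start followed another pattern than at the other gene starts, by peak counts without a test. The promoters of all 3 are printed for that reason, from RefSeq on GRCm38.p6. They are on the minus strand, from 250 bases before to 50 bases after the start. Capitals mark matches to the motifs searched on both strands: KLF GGGNGTG, GC box GGGCGG, AP-1 TGANTCA, CRE TGACGTCA and E2F TTTNNCGC. The first is the upstream start of Cdkn2a (chr4:89294570-89294869), which by its position is the Arf start, the second the downstream start (chr4:89282143-89282442), that of p16Ink4a, and the third that of Cdkn2b (chr4:89310983-89311282).
Cdkn2a Arf start: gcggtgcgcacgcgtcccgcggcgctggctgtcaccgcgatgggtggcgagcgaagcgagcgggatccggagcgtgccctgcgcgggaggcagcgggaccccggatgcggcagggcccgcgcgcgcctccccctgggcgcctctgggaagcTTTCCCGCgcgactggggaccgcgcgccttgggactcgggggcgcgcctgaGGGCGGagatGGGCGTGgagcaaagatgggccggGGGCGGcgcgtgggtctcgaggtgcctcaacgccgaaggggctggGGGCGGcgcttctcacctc
Cdkn2a p16Ink4a start: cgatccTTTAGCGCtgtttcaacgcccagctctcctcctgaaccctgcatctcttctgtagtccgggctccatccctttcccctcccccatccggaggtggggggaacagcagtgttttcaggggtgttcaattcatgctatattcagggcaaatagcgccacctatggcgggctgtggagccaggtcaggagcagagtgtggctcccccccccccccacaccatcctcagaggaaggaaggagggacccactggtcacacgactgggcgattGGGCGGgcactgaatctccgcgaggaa
Cdkn2b start: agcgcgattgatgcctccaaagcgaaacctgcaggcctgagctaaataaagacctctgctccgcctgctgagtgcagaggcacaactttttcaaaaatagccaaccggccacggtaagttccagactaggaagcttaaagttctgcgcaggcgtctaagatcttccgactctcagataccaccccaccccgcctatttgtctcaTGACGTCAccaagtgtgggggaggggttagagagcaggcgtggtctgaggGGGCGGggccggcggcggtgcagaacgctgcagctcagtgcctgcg
The Arf start held a KLF motif, 3 GC boxes and an E2F motif in 77.0% G and C. The p16Ink4a start held 1 GC box and 1 E2F motif, and the Cdkn2b start 1 GC box and the palindromic CRE. Of all 32619 promoters of this length, 29.0% held the KLF motif, 35.9% the GC box, 7.85% the AP-1 motif, 1.8% the CRE and 5.2% the E2F motif. The motifs searched do not overlap in these windows, and none of the 3 held the AP-1 letters.

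The p16Ink4a start had an H3K27ac peak in 2 of 2 MEF libraries, 0 of 3 on day 3, 0 of 3 on day 6, 2 of 2 on day 9 and 0 of 2 in ESC. Its peaks stood in the top 19.0% and 16.6% of the MEF lists by the authors' score, with an authors' fold enrichment of 8.99 and 10.9, and at 39.1% and 34.9% of the day 9 lists. The surrounding region (chr4:89281201-89283853) ranked highest of the 4 MEF-only regions in the Cdkn2a window, by the mean rank of the score in the lists that define a class, which is the rank used for regions of a class below. It remained MEF-only when every list was cut to its 17493 highest-scoring peaks. The Arf start, by contrast, had a peak in every library except 1 of 3 on day 6. The Cdkn2b start had one in every MEF, day 3 and day 9 library, 2 of 3 on day 6 and 1 of 2 in ESC. The regions around both (chr4:89293450-89296678 and chr4:89307656-89312074) were present in all 12 libraries. The other MEF-only regions of the Cdkn2b window included one 47.9 kb upstream of the gene (chr4:89358977-89361044), with peaks again in both day 9 libraries. In all, 7 of 10 regions of that window were MEF-only and none was ESC-only, against 39.4% and 29.6% of all regions. With lists of 17493 peaks, 1 of 3 was MEF-only and 2 were shared by MEF and ESC.

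KLF4 was found at the Arf and Cdkn2b starts and outside them mostly on day 3. The region over the Arf start (chr4:89294439-89294885) held a KLF4 peak in 1 of 2 libraries on day 3, 1 of 2 on day 6, 2 of 2 on day 9, 1 of 2 in ESC and 2 of 2 in ESC with 2i. The region over the Cdkn2b start (chr4:89310494-89311203) did so in 2, 1, 2, 1 and 2 of 2. At the p16Ink4a start 1 of 2 libraries had a peak on day 3 and on day 6, and none on day 9, in ESC or in 2i. Upstream of Cdkn2b, regions 37.7 kb (chr4:89348687-89349083) and 49.2 kb away (chr4:89360216-89360773) were bound in both day 3 libraries and in neither ESC library. Both overlapped H3K27ac regions present in 2 of 2 MEF and 0 of 3 day 3 libraries. KLF4 coverage of the Cdkn2b window was 222.3 and 143.1 bp per Mb on day 3, 176.7 and 23.7 on day 6, 64.3 and 67.0 on day 9, 0.0 and 91.7 in ESC, and 75.8 and 111.8 in 2i. The ESC library of batch EA-2697 held no peak in either window, and it had the shortest KLF4 list. The ESC minus day 3 difference was -2.56 (SE 1.06, adjusted p = 0.14, limma) and did not pass. It was -0.89 (adjusted p = 0.62) without that library, and -4.24 (adjusted p = 0.043) without the other, EA-2643, which leaves ESC as 1 library without a peak there. The Cdkn2a window gave -1.94 (SE 1.06, adjusted p = 0.26), with -0.27 (adjusted p = 0.90) and -3.62 (adjusted p = 0.060) in the same order.

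**Figure D2:**
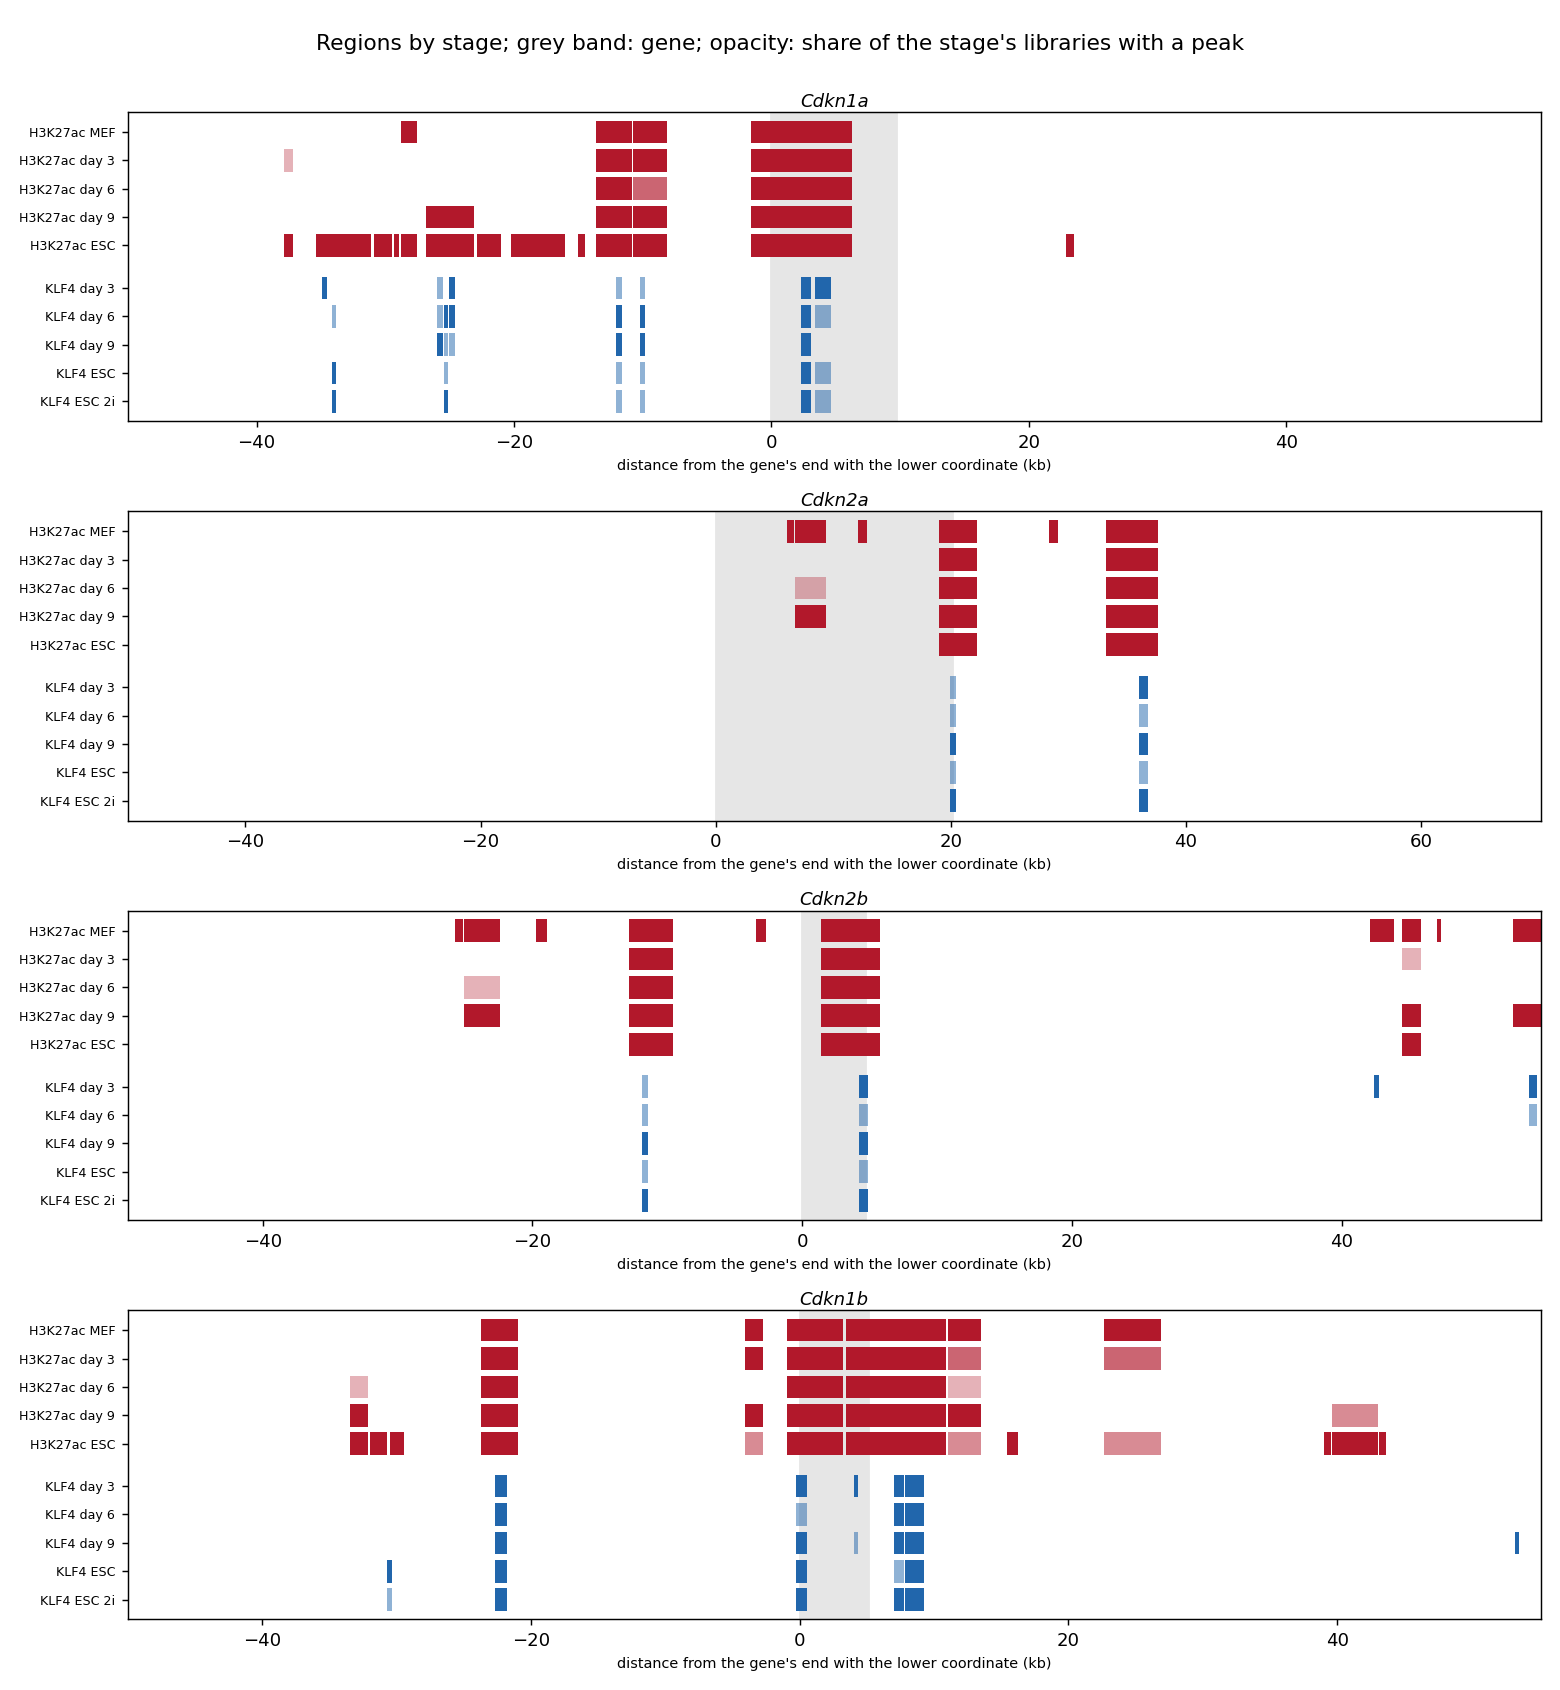
Regions of H3K27ac (red) and KLF4 (blue) around the 4 kinase inhibitor genes, 1 row per stage, against the distance in kb from the gene's end with the lower coordinate. Grey bands are the genes and full colour means a peak in every library of the stage. Regions are drawn at their merged extent, and short ones slightly widened. Of the 13 H3K27ac regions at Cdkn1a, 9 are present in ESC and not MEF, and of the 10 at Cdkn2b, 7 are present in MEF and not ESC.

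Cdkn1a kept an acetylated region over its 5′ part at every stage, although on day 6 no peak reached the main start, and had an upstream array in ESC that MEF lacked. H3K27ac covered 149.4 and 150.4 bp per Mb in MEF, 221.5, 260.1 and 326.9 on day 3, 433.6, 458.1 and 347.7 on day 6, 284.4 and 276.8 on day 9, and 412.4 and 391.4 in ESC. MEF were below all other libraries, and ESC overlapped only day 6. In covered length, ESC (mean 25.85 kb) stood above day 9 (13.81 kb), MEF (12.46 kb) and day 3 (8.07 kb), and day 6 was shortest (5.24 kb). The ESC minus MEF difference was 1.36 (SE 0.172, adjusted p = 9.8e-05). It did not hold at the gene itself: over the gene and 2.5 kb to each side it was -0.19 (SE 0.185, adjusted p = 0.44). Covered length does not show the height of a peak. The peak over the main start had an authors' fold enrichment of 27.9 and 29.7 in MEF and 10.7 and 5.46 in ESC. By score it stood at 3.78% and 4.17% of the MEF lists and at 14.0% and 31.0% of the ESC lists, without a test. Of the 13 regions in the window, 9 were ESC-only, 4 were shared and none was MEF-only. The ESC-only regions lay mostly upstream, with the highest ranking at 23.1 kb (chr17:29064174-29067843, also in both day 9 libraries) and 16.1 kb (chr17:29070772-29074901) from the gene. Regions 10.8 kb upstream (chr17:29077327-29080143) and over the gene start (chr17:29089357-29097204) were acetylated in all 12 libraries.

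KLF4 occupied the main Cdkn1a start in all 10 libraries. That region (chr17:29093285-29094083) was the only Cdkn1a site bound in both libraries of days 3, 6 and 9 and of ESC, and 2i had it as well. The upstream array was bound at shifting sites. A region 34.5 kb upstream (chr17:29056061-29056465) was bound in both day 3 libraries alone, and a neighbouring one (chr17:29056814-29057181) in both ESC and both 2i libraries, in 1 of 2 on day 6, and in neither day 3 nor day 9 library. Coverage of the whole window was 297.1 and 154.2 bp per Mb on day 3 and 146.6 and 220.4 in ESC, with values between 205.1 and 297.3 at days 6 and 9 and of 320.7 and 455.8 in 2i. The groups of day 3 and ESC overlapped (difference -0.24, SE 0.338, adjusted p = 0.66).

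Cdkn1a has 2 promoter entries on the plus strand, shown because KLF4 lay over one of them in every library and because the other holds the p53 response element through which p53 is known to induce this gene. Capitals mark GC boxes in the first (chr17:29093519-29093818) and the p53 element in the second (chr17:29090729-29091028).
Cdkn1a main start: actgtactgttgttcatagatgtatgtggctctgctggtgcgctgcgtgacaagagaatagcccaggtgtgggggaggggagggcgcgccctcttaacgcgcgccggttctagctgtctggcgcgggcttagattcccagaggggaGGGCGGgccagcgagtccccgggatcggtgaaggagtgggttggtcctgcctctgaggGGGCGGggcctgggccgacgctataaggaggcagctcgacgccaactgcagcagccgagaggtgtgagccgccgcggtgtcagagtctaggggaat
Cdkn1a upstream start: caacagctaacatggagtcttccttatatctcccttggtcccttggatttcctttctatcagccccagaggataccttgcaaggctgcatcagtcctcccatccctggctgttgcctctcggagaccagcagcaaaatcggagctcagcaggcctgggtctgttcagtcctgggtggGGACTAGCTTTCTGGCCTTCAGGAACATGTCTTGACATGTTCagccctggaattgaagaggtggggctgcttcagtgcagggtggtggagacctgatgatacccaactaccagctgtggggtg
The search for the p53 element, chosen after the sequences were seen, allowed 1 mismatch in all and up to 13 bases between its paired motifs. It found an exact match and a match with 1 mismatch, which overlap. Of all promoters, 1.1% held such a match, and no other promoter of the 6 genes with an entry did. KLF4 peaks at the upstream start were found in 1 of 2 libraries on day 3, day 9 and in 2i, and in none on day 6 or in ESC. H3K27ac peaks lay over the upstream start in all 12 libraries, and over the main start in all except the 3 of day 6. The KLF letters were not in either window.

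At Cdkn1b, for p27Kip1, the end points did not differ by the test over 50 kb of covered length, while coverage at the gene was lower in ESC. H3K27ac covered 240.5 and 248.6 bp per Mb in MEF, 318.0, 326.8 and 364.5 on day 3, 605.2, 568.1 and 459.0 on day 6, 263.7 and 285.4 on day 9, and 261.2 and 299.0 in ESC. Day 6 libraries were above all others, in lists of short length (mean covered 6.92 kb, against 20.33 kb in MEF, 17.96 kb in ESC, 13.52 kb on day 9 and 10.29 kb on day 3). The ESC minus MEF difference was 0.19 (SE 0.134, adjusted p = 0.25) over 50 kb, where the number of peaks gave 0.81 (SE 0.157, adjusted p = 0.0032). It was -0.77 (SE 0.154, adjusted p = 0.0027) over 2.5 kb, where MEF had 98.5 ± 1.2 (SD, n = 2) and ESC 53.7 ± 6.5 (SD, n = 2) bp per Mb. Of its 13 regions 7 were ESC-only and none was MEF-only. The region 20.9 kb upstream (chr6:134896655-134899459) overlaps the neighbouring gene Gpr19, had a mean rank of 691.7 by score over the lists and was present in all 12 libraries, as were those over the start (chr6:134919433-134923635) and the gene's 3′ part (chr6:134923852-134931314). KLF4 was bound at all 4 stages within the upstream region (chr6:134897702-134898637) and 2.67 kb past the gene (chr6:134928200-134929626). At the promoter (chr6:134920138-134920935) it was missing only from 1 of 2 libraries on day 6.

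Trp53 had more acetylation in ESC than in MEF at every width tried. Its window gave 124.8 and 123.0 bp per Mb in MEF, 178.0, 185.6 and 227.5 on day 3, 293.6, 300.3 and 261.6 on day 6, 307.3 and 298.8 on day 9, and 429.8 and 424.6 in ESC. Only the day 6 and day 9 libraries overlapped. Covered length was 10.3 kb in MEF, 5.97 kb on day 3, 3.69 kb on day 6, 14.92 kb on day 9 and 27.46 kb in ESC. The ESC minus MEF difference was 1.71 (SE 0.115, adjusted p = 1.3e-06) over 50 kb and 1.24 (SE 0.102, adjusted p = 8.1e-06) over 2.5 kb. The window also holds 7 other protein-coding genes, among them Wrap53, which overlaps Trp53 on the opposite strand, and Efnb3, so distal regions cannot be assigned to Trp53. Of 18 regions, 10 were ESC-only, 8 shared and none MEF-only. Of the ESC-only regions, one inside the gene (chr11:69583931-69587452) and one past it (chr11:69604553-69605988) had close mean ranks in the class's lists (17332.8 and 17607.8). Over all lists with a peak there, the second ranked higher (22590.5 and 21062.2). Both were present in both day 9 libraries. With every list cut to its 17493 highest-scoring peaks, neither was ESC-only. Of 4 regions then, 1 was ESC-only (chr11:69599156-69602022) and 3 were shared. In the full lists that 1 region (chr11:69599156-69602324) was shared, with peaks in 2 of 2 MEF and 2 of 2 ESC libraries. The promoter region (chr11:69579475-69583861) was present in all 12 libraries.

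KLF4 lay inside Trp53 and not at its promoter. The promoter had a KLF4 peak in 1 of 2 day 6 libraries and in no other. A region about 1 kb inside the gene (chr11:69581289-69582462) and one 13.7 kb past it (chr11:69605541-69606455) were bound in all 10 libraries. The second had no H3K27ac peak in any MEF, day 3 or day 6 library and had one in both day 9 and both ESC libraries. Regions 22.7 kb (chr11:69557448-69557649) and 19.9 kb upstream (chr11:69560185-69560438) were bound in both ESC libraries and neither day 3 library. KLF4 coverage was 186.0 and 125.5 bp per Mb on day 3 and 309.6 and 245.8 in ESC, which did not overlap, but the difference of 0.81 (SE 0.301) had an adjusted p of 0.10 in limma.

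At Mdm2, H3K27ac was highest on day 9 over 50 kb, and by share not nearer the gene. It covered 170.1 and 198.5 bp per Mb in MEF, 164.5, 185.0 and 250.7 on day 3, 206.7, 184.3 and 254.6 on day 6, 383.5 and 345.0 on day 9, and 180.7 and 166.7 in ESC. The day 9 libraries were above all others, while each of the remaining stages overlapped the next in order. Over 2.5 kb the mean share was 88.7 on day 9, 140.1 on day 6 and 101.6 on day 3, and over 10 kb it was 128.2, 149.6 and 171.8. The shorter lists of days 3 and 6 raise these shares, so they give no order in covered length. In width, the highest-scoring peak over the promoter had 4067 and 3770 bp on day 9. It had 3117, 2232 and 1597 bp on day 3 and 1369, 371 and 1999 bp on day 6. Day 9 was also longest in covered length over 50 kb (17.92 kb, against 15.32 kb in MEF, 11.18 kb in ESC, 5.98 kb on day 3 and 2.98 kb on day 6). The F test gave an adjusted p of 0.0045. It was 0.052 without day 9 replicate 1, 0.026 without day 9 replicate 2 and 0.041 with batch as a term. Within batch DG-3458 alone, which has no day 9 library and fewer of day 3 and day 6, it was 0.37. Day 9 was profiled only in batch EA-3702. In that batch the day 3 library had 164.5 and the day 6 library 254.6 bp per Mb. The ESC minus MEF difference was -0.08 (SE 0.197, adjusted p = 0.75) over 50 kb and 0.64 (SE 0.202, adjusted p = 0.027) over 2.5 kb. With lists of equal length it was -0.54 (SE 0.150, adjusted p = 0.013) over 50 kb.

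All 6 regions of the 8 genes that were acetylated in both day 9 libraries and in no other library lay in the Mdm2 window. One overlapped the 3′ end of Mdm2 (chr10:117688906-117689587), and 5 lay beyond it, inside the neighbouring gene Cpm. The strongest were 11.7 kb (chr10:117675515-117677134) and 39.4 kb past the gene (chr10:117647273-117649431). Both remained so with lists of 17493 peaks. Day 9 alone made up 6.19% of the 97 regions of the 8 genes and 4.19% of all 106500 regions, and this class was added after the regions were seen. KLF4 overlapped 3 of these 6 in both day 9 libraries and 1 more in 1 of them. The region at 39.4 kb held a KLF4 site (chr10:117648311-117648844) in both libraries of days 3, 6 and 9 and of ESC, without H3K27ac in any library of MEF, day 3, day 6 or ESC. The region at 11.7 kb held one (chr10:117676208-117676470) in both day 9 libraries alone. The Mdm2 promoter region (chr10:117708227-117712860) had a mean rank of 427.1 by score and was acetylated in all 12 libraries. The KLF4 region over the promoter entry (chr10:117710596-117711007) had a peak in 1 of 2 libraries at days 3, 6 and 9. It had one in 2 of 2 in ESC and in 2i, and the promoter entry holds 2 KLF motifs. KLF4 coverage was 160.9 and 183.1 bp per Mb on day 3, 296.8 and 329.9 on day 6, 436.5 and 265.5 on day 9, 312.7 and 242.8 in ESC, and 235.2 and 275.1 in 2i. Day 3 was below all others, yet neither the F test (adjusted p = 0.12) nor ESC against day 3 (0.65, SE 0.264, adjusted p = 0.13) passed in limma.

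**Figure D3:**
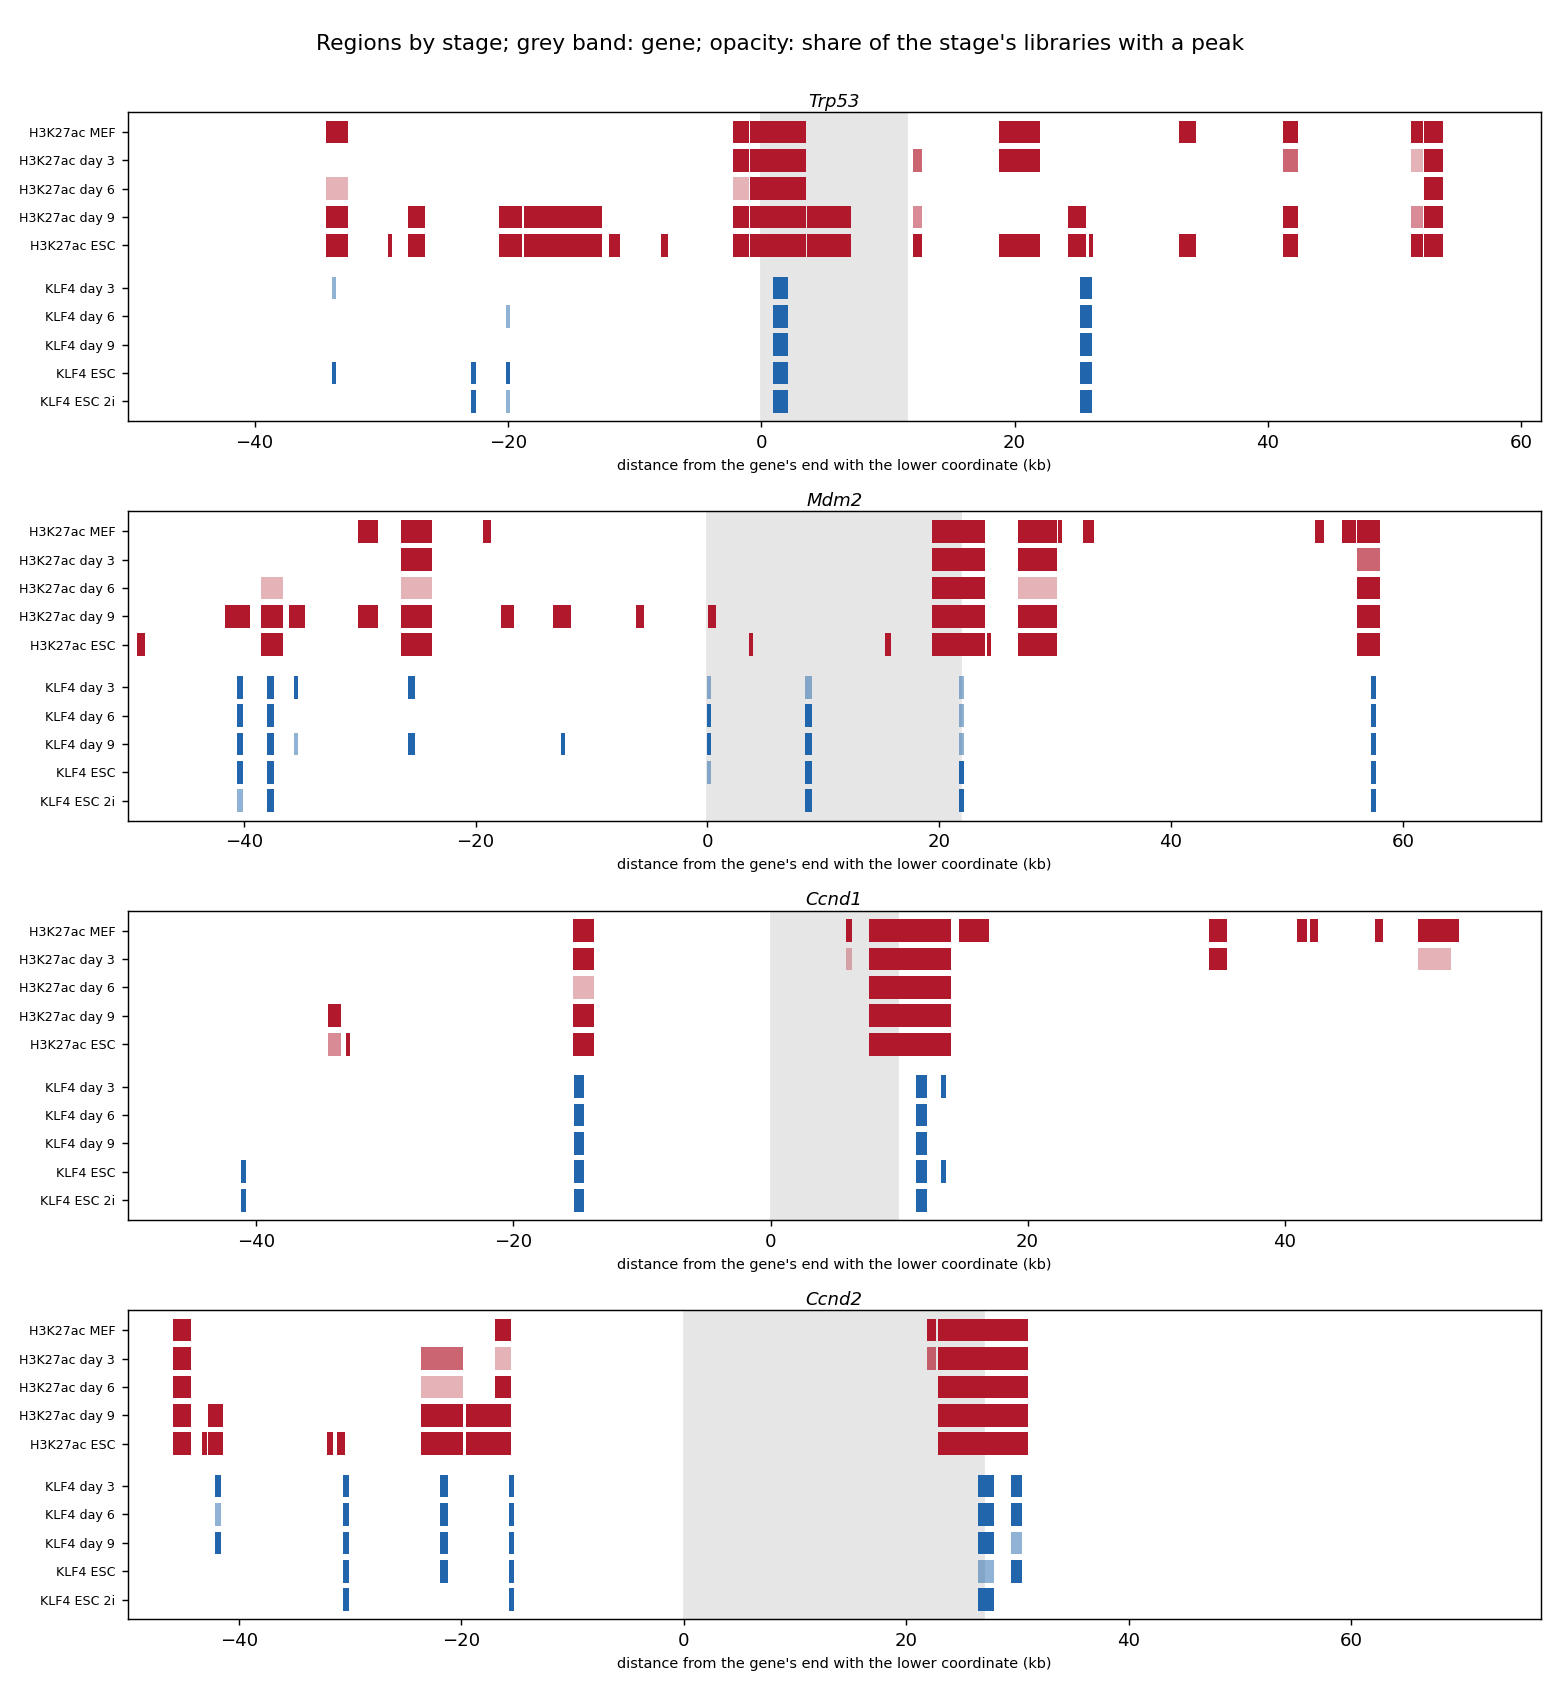
Regions of H3K27ac (red) and KLF4 (blue) around Trp53, Mdm2, Ccnd1 and Ccnd2, 1 row per stage, against the distance in kb from the gene's end with the lower coordinate. Grey bands are the genes and full colour means a peak in every library of the stage. The 6 regions of the day 9 row alone lie at and to the left of Mdm2, and 8 of 12 regions of Ccnd1 are in MEF and not in ESC.

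The D cyclins moved in opposite directions over 50 kb. At Ccnd1, H3K27ac covered 213.2 and 197.1 bp per Mb in MEF, 198.5, 218.2 and 259.6 on day 3, 412.5, 456.9 and 299.7 on day 6, 159.7 and 145.9 on day 9, and 105.9 and 118.5 in ESC. By this share ESC were below all other libraries. In covered length MEF were longest (17.06 kb), and ESC (7.2 kb) lay near day 9 (7.52 kb) and above day 3 (6.82 kb) and day 6 (4.84 kb). The difference was -0.82 (SE 0.187, adjusted p = 0.0040). It missed the threshold with lists of equal length (-0.45, adjusted p = 0.097) and by number of peaks (-1.08, adjusted p = 0.067). It was 0.17 (SE 0.243, adjusted p = 0.62) over 2.5 kb and 0.96 (SE 0.187, adjusted p = 0.0013) over 100 kb, where other genes enter. Of 12 regions 8 were MEF-only, and 7 of these formed an array from 4.78 to 43.0 kb at higher coordinates. Its highest-ranking members (chr7:144964045-144965417 and chr7:144980337-144982857) stayed MEF-only with lists of equal length. The region over the gene (chr7:144937591-144943979) was present in all 12 libraries. KLF4 was bound in all 10 libraries 1.38 kb from the gene at higher coordinates (chr7:144941215-144942091), within that H3K27ac region. It was also bound in all 10 libraries 14.5 kb from the gene at lower coordinates (chr7:144914654-144915412).

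At Ccnd2 the values were 112.5 and 109.1 in MEF, 242.3, 244.7 and 310.0 on day 3, 556.1, 458.2 and 416.2 on day 6, 301.9 and 327.5 on day 9, and 186.6 and 196.9 bp per Mb in ESC. By this share MEF were lowest and day 6 highest, and ESC overlapped with no other stage. In covered length the order differed: day 6 was shortest (6.12 kb), then day 3 (8.05 kb), MEF (9.21 kb), ESC (12.31 kb) and day 9 (15.5 kb). The difference was 0.74 (SE 0.150, adjusted p = 0.0020), and it missed the threshold for covered length without scaling (0.41, adjusted p = 0.24) and with lists of equal length (0.14, adjusted p = 0.52). At the gene the direction was opposite: over 2.5 kb ESC had 17.9 ± 10.4 (SD, n = 2) and MEF 71.5 ± 0.5 (SD, n = 2) bp per Mb, a difference of -1.60 (SE 0.282, adjusted p = 0.0013). Of the 10 regions of the window 6 were ESC-only, all 17.0 to 42.8 kb away at lower coordinates, led by chr6:127101496-127105318 inside Tigar, a p53-inducible regulator of glycolysis. KLF4 bound within that region (chr6:127103196-127103962) in both libraries of days 3, 6 and 9 and of ESC, and in neither 2i library. KLF4 coverage at Ccnd2 was 311.2 and 341.1 bp per Mb on day 3, above every other library, and 237.5 and 176.5 in ESC (difference -0.64, SE 0.237, adjusted p = 0.10).

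**Figure D4:**
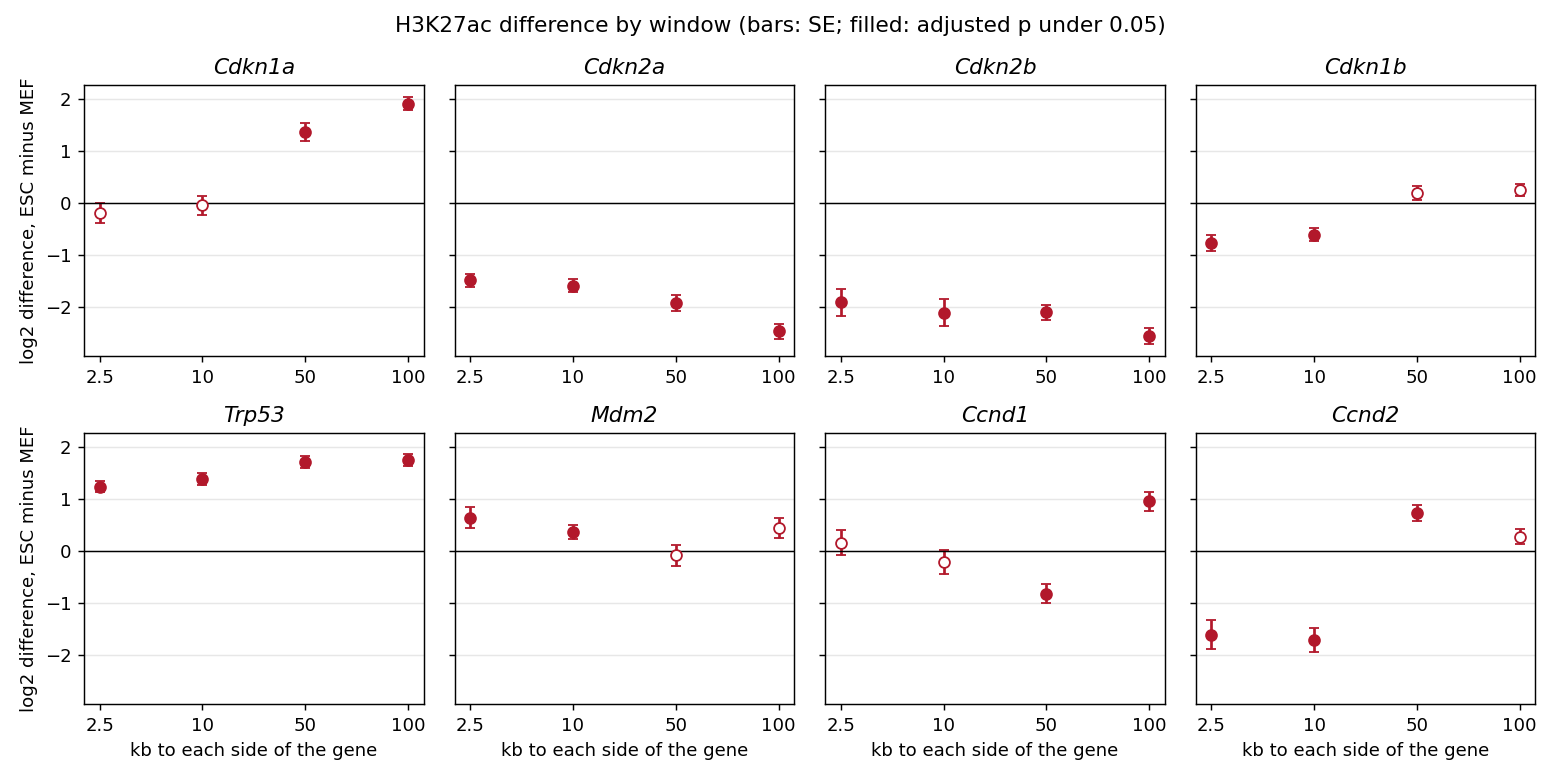
ESC minus MEF difference of H3K27ac on the log2 scale for windows of 2.5, 10, 50 and 100 kb to each side of each gene, with SE. Filled points have an adjusted p under 0.05. Cdkn2a, Cdkn2b and Trp53 keep their direction at every width, and Ccnd2 turns from -1.60 at 2.5 kb to 0.74 at 50 kb.

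Across widths, the locus of Cdkn2a and Cdkn2b was lower in ESC and Trp53 higher in ESC whichever window was used. Over 2.5 kb, 4 of the 8 genes were lower (Cdkn2a, Cdkn2b, Cdkn1b, Ccnd2) and 2 higher (Trp53, Mdm2), against 23.1% and 24.6% of all windows. Over 100 kb, 2 were lower (Cdkn2a, Cdkn2b) and 3 higher (Cdkn1a, Trp53, Ccnd1), against 25.8% and 41.3%.

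Counting each region once, the 8 windows held 97 H3K27ac regions. Of these 22.7% were MEF-only, 39.2% ESC-only and 27.8% shared, against 39.4%, 29.6% and 14.9% of all regions. The genes split by class: every ESC-only region lay at Cdkn1a, Cdkn1b, Trp53, Mdm2, Ccnd1 or Ccnd2, and no region of the Cdkn2a and Cdkn2b locus was of that kind. Of the 8 promoter entries of 6 genes, 3 (Cdkn1b, Mdm2 and the upstream Cdkn1a start) had H3K27ac in all 12 libraries. By stage, 8 had it in every MEF library, 6 on day 3, 4 on day 6, 8 on day 9 and 6 in ESC, against 41.0%, 25.2%, 19.1%, 37.9% and 36.8% of all promoters. The share of all promoters with a peak in all 12 libraries was not counted, and it cannot exceed the 19.1% of day 6. Over the gene and 2.5 kb, all 8 genes had an H3K27ac peak in all 12 libraries, among them Ccnd1 and Ccnd2, which have no promoter entry. The share of all genes with this was not counted.

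For KLF4, none of the 8 genes passed the F test, against 18.7% of 18857 windows, or differed between ESC and day 3, against 5.29% lower and 9.22% higher. At an unadjusted p under 0.05 there were 2 (Mdm2 and Ccnd2) by the F test and 4 (Cdkn2b, Trp53, Mdm2 and Ccnd2) between ESC and day 3, against 36.8% and 30.4% of all windows. Day 3 and ESC share no KLF4 batch, and stage and batch cannot be told apart there. The 8 windows held 44 KLF4 regions, of which 18.2% were bound on day 3 and not in ESC, 11.4% in ESC and not on day 3 and 29.5% at all 4 stages. The shares of all 33431 regions were 21.6%, 17.5% and 16.9%.

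**Figure D5:**
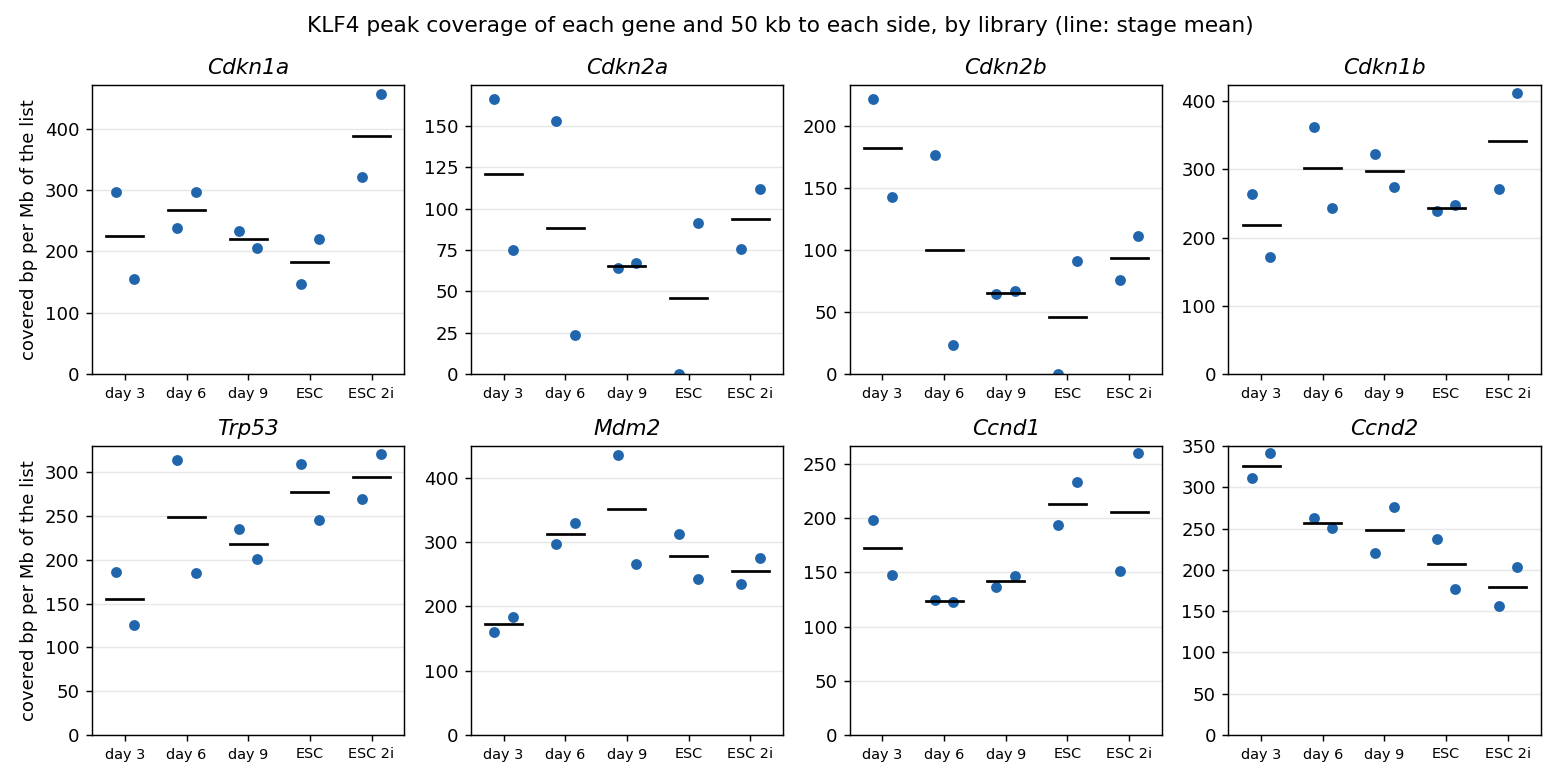
KLF4 coverage of each gene and 50 kb to each side, in bp covered per Mb of the library's peaks (linear axis from 0), with 1 point per library and a line at the stage mean. Libraries of a stage are often far apart, as at Cdkn2b on day 6 (176.7 and 23.7), and 1 ESC library has no peak at Cdkn2a and Cdkn2b.

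At promoters, KLF4 was found in every library of the stage at 3 of the 8 entries on day 3, 1 on day 6, 4 on day 9, 3 in ESC and 5 in 2i, against 13.5%, 14.6%, 16.5%, 13.9% and 15.1% of all promoters. The main Cdkn1a start was the entry bound at all of these stages. Bound regions of the 8 genes carried H3K27ac in at least 2 libraries of the same stage for 14 of 28 on day 3, 11 of 22 on day 6, 24 of 27 on day 9 and 18 of 24 in ESC. Over all bound regions the shares were 58.5%, 44.7%, 76.2% and 70.7%, lowest on day 6, where the H3K27ac lists were shortest.

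Other genes of the pathway moved in both directions, at shares near those of all windows. Of 49 genes in 6 lists, 18 (36.7%) were higher and 13 (26.5%) lower in ESC than MEF in H3K27ac over 50 kb (limma, adjusted p under 0.05), against 37.2% and 26.1% of all windows. Their median difference was 0.10, against 0.19. The same 37.2% and 26.1% are the background for each list below. Among 17 p53 targets, 8 were higher, such as the apoptosis gene Bax (1.64, SE 0.128) and the ribonucleotide reductase subunit Rrm2b (2.00, SE 0.265), and 5 were lower, such as the death receptor Fas (-4.88, SE 0.493) and Btg2 (-1.24, SE 0.106). Among 9 regulators of Cdkn2a, 3 were higher and 4 lower, with Polycomb genes on both sides. Higher were Cbx7 (2.43, SE 0.287), Ezh2 (1.14, SE 0.247) and Kdm2b (1.74, SE 0.226). Lower were the Polycomb gene Bmi1 (-0.88, SE 0.224), Tbx2 (-1.19, SE 0.316), Id1 (-0.45, SE 0.158) and the activator Ets1 (-4.40, SE 0.329). Among 8 p53 relatives and regulators 3 were higher, Usp7 (3.19, SE 0.185), Mdm4 (1.15, SE 0.134) and Chek2 (1.12, SE 0.181), and Trp63 was lower (-2.62, SE 0.702). The other cyclins and kinases gave 3 of 6 higher (Ccnd3, Ccne2 and Cdk2), the RB and E2F list 2 of 6 lower (Rbl1 and E2f2), and the other inhibitors 1 higher (Cdkn1c) and 1 lower (Cdkn2c) of 3. For KLF4, 10 of the 49 (20.4%) passed the F test, against 18.7% of all windows, and 5 (10.2%) were higher in ESC than on day 3, against 9.22%.

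The window most like each gene in its log2 H3K27ac share over the 12 libraries, at least 1 Mb away, was Ippk for Cdkn2b (Pearson r = 0.984), Slx4ip for Cdkn2a (0.983), 1700001P01Rik for Cdkn1a (0.993), Zswim4 for Cdkn1b (0.988), Acsbg3 for Trp53 (0.985), Bbip1 for Ccnd1 (0.984) and Ifi35 for Ccnd2 (0.986). The libraries share list lengths, and 136 to 1197 windows reached an r of 0.9 with each of these 7 genes. For Mdm2 the closest were Vmn2r20 (0.913) and Pkmyt1 (0.911), and 8 windows reached 0.9.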

How the data were processed

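The genes and lists were chosen with earlier results of these data known. The authors deposited 1 peak list per library; per the submitters' processing notes reads were handled with cutadapt 1.8.1, Bowtie2 2.2.5, deepTools 2.3.6 and MACS2 2.1.1 on mm10. Each deposited peak carries the authors' score (from its −log10 p), a ratio to background as fold enrichment, and a −log10 q-value; 13 input libraries were not analysed here. The labels number the antibody of each library consecutively while the labels' protocols name one catalogue number per target, so 1 antibody per target was assumed. From these, covered bp per Mb was computed for 21627 protein-coding windows (RefSeq, GRCm38.p6) and tested as log2(value + 10) with limma 3.58.1 in R 4.3.3, with trend, over windows with a peak in at least 2 libraries, two-sided, with Benjamini-Hochberg adjustment and a threshold of 0.05. Fold changes on this scale understate changes of low windows. Regions are merged peaks found in at least 2 libraries of a stage, joined over stages, with 1 bp overlap. MEF-only means both MEF and neither ESC library, ESC-only the reverse. Named regions were those over promoters and, per gene and class, the 2 best by mean rank of the score. The test was checked on simulated data. Alternatives were scaling, list length, peak number, q-value, pseudocount, filter, window, batch, pairing, left-out libraries and overlap.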

Additional observations from a re-analysis of the deposited data

How the results depend on the processing

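Depth is unknown, groups hold 2 or 3 libraries, and a short list gives its peaks a larger share. Cdkn2a and Cdkn2b stayed lower and Trp53 higher in ESC than MEF in H3K27ac, past the threshold, under every alternative run. Over 50 kb the alternatives ranged from -2.54 to -1.16 at Cdkn2a, -2.68 to -1.40 at Cdkn2b, 1.07 to 1.78 at Trp53 and 0.75 to 2.26 at Cdkn1a. Some differences took the opposite sign under an alternative. Ccnd1 also missed the threshold with 10 kb (-0.22) and Ccnd2 with 100 kb (0.28). For H3K27ac these were Cdkn1b without scaling (-0.18) and with lists of equal length (-0.10), and Mdm2 by number of peaks (0.27). With 2.5 kb windows they were Cdkn1a (-0.19), Cdkn1b (-0.77), Mdm2 (0.64), Ccnd1 (0.17) and Ccnd2 (-1.60), with 10 kb Cdkn1a (-0.04), Cdkn1b (-0.60), Mdm2 (0.37) and Ccnd2 (-1.70), and with 100 kb Mdm2 (0.44) and Ccnd1 (0.96). Leaving out 1 library, Mdm2 ranged from -0.18 to 0.03. For KLF4 they were Cdkn1b (-0.59), Mdm2 (-0.13) and Ccnd1 (-0.47) without scaling, Cdkn1b (-0.19) and Ccnd1 (-0.63) with 2.5 kb, Cdkn1b (-0.56) and Ccnd1 (-0.04) with 10 kb, and Cdkn1a (0.11) with 100 kb. Leaving out 1 library, Cdkn1a ranged from -0.69 to 0.21, Cdkn1b from -0.11 to 0.48, Trp53 from 0.54 to 1.08 and Ccnd1 from 0.10 to 0.50. Under all alternatives over 50 kb, the KLF4 difference ranged from 0.03 to 1.46 at Trp53 and from -1.42 to -0.03 at Ccnd2. Windows of other widths hold different regions by construction, and for the rest the cause was not tested.

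By the KLF4 F test, 1 gene (Mdm2) in place of 0 passed with lists of equal length and with 100 kb. Between ESC and day 3, 1 gene was higher with lists of equal length (Mdm2) and 1 lower with 10 kb (Ccnd2), and leaving out 1 library gave 0 to 1 lower. With batch as a term over days 3, 6 and 9, 0 genes and 0 windows passed, as without it over the same libraries.

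Lists of equal length, chosen after seeing the data, gave 6 MEF-only, 9 ESC-only, 13 shared and 2 day 9 regions for H3K27ac. For KLF4 they gave 5 regions of day 3 and not ESC and 6 of ESC and not day 3, against 8 and 5. Regions were classed anew in these lists, so some of them held another class in the full lists. An example is chr6:127148043-127156117 over Ccnd2, MEF-only in the cut lists and present in every library in the full ones. Leaving out 1 library gave 22 to 42 MEF-only regions (42 without MEF replicate 1) and 38 to 71 ESC-only (71 and 58 without ESC replicate 1 and 2). For KLF4 it gave 8 to 22 of day 3 and not ESC (22 without DG-4040, 14 without EA-3702) and 5 to 18 of ESC and not day 3 (18 without EA-2697, 10 without EA-2643). By construction, 1 library then decides a stage. A region from any library, or an overlap of 50%, changed no class count by over 1.5 times. Both settings could change little by construction. The overlap was asked of peaks against regions merged from the same peaks, and a class needs every library of a stage.

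Over all windows, the H3K27ac split between ESC and MEF was 5163 lower and 7365 higher, 5274 and 4832 with lists of equal length, 3049 and 6480 by number of peaks, and 3806 and 4045 with 2.5 kb. KLF4 windows with a stage difference numbered 3533, 681 without scaling, 1849 by number of peaks, 1007 with q at most 0.01, 1768 with 2.5 kb, 2228 with 10 kb and 2320 with no filter. They numbered 1060 to 2256 without either day 9 or either 2i library, the DG-4040 day 3 library or the EA-2697 ESC library. Without scaling, 699 KLF4 windows were lower and 160 higher in ESC than on day 3, against 998 and 1738. They were 108 and 167 without the EA-2697 ESC library, 890 and 754 without EA-2643, 170 and 429 without the DG-4040 day 3 library, 280 and 1172 without EA-3702, and 303 and 451 with q at most 0.01.

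Replicate numbers of batch DG-3458 did not pair the samples: correlations of deviations from the stage means lay between -0.00728 and 0.0329. The peak names in the day 6 lists of that batch carry the numbers 1 and 2 exchanged against the sample titles, which were followed here. The exchange would turn the signs of the day 6 correlations, and the block was not refitted with it. With the replicate block, 7 genes differed among stages in H3K27ac, 3 were lower and 3 higher in ESC than MEF, as without the block in that batch.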
